A study of Mus musculus with 17 samples.

Results

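The antibody genes of the mouse kidney were followed here across 5 genotype groups of a TFE3-rearranged renal cell carcinoma model. Members were the genes whose symbol in the GENCODE M21 annotation of GRCm38 begins as an immunoglobulin heavy, kappa or lambda gene, together with Jchain, and whose summed expected count averaged 10 or more over the 17 libraries. Of 388 matching symbols among 35971 genes, 165 reached that mean. One of them, Ighmbp2, encodes a helicase and no antibody chain, stood at 7.01 to 12.8 CPM (counts scaled to the library size) in all libraries, and was left out of every sum. The other 164 comprised 8 heavy chain constant genes, the kappa constant gene Igkc, 3 of 4 lambda constant genes, Jchain, 74 of 185 heavy variable genes (Ighv), 74 of 160 kappa variable genes (Igkv) and all 3 lambda variable genes (Iglv). None of the 20 heavy diversity segments and none of the 5 kappa joining segments reached the mean. The last genes outside were Igkv4-71, Ighv7-1 and Ighv2-5 with mean counts of 9.68, 9.82 and 9.87, and the first inside were Ighv9-2, Ighv2-6-8 and Ighv5-6 with 10.1, 10.2 and 10.4. Because the mean count chose the members, a variable gene that was high in only 1 library could enter through that library, and 5 of the variable members are annotated as pseudogenes, 4 of them Ighv and 1 Igkv.

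An antibody is built of paired heavy and light chains. In each B cell DNA rearrangement joins a single heavy variable gene to a diversity and a joining segment. A single light variable gene is joined to a joining segment only, and each joined exon is spliced to a constant gene. The heavy constant gene sets the class: Ighm gives IgM, Ighd gives IgD, Ighg1, Ighg2b, Ighg2c and Ighg3 give the IgG classes, Igha gives IgA and Ighe gives IgE. B cells carry the antibody in the membrane as part of the B cell receptor. Plasma cells instead make mostly the secreted form of the heavy chain message, devote much of their RNA to it and release the protein. The joining chain encoded by Jchain links IgM and IgA units into polymers. In the mouse most antibody carries a kappa light chain. Clonal expansion of a single B cell raises a single heavy and a single light variable gene together, so the make-up of the variable genes differs between animals.

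All 17 kidneys carried the Cre-dependent lsl-PRCC-TFE3 KI allele, which encodes the fusion protein of this carcinoma. The Cre(-) group (n = 4) lacked the KSP-Cre transgene, and its replicates 1 and 2 also carried HIF1a f/f whereas replicates 3 and 4 carried no floxed Hif allele. The 4 other groups were KSP-Cre(+): PRCC-TFE3 KI alone (KI, n = 3), with HIF1a f/f (Hif1α KO, n = 4), with HIF2a f/f (Hif2α KO, n = 3), and with both (DKO, n = 3). The Ksp promoter, that of Cadherin 16, drives Cre in kidney epithelium, and not in the lymphocytes that transcribe antibody genes. The labels give no sex or age for the sequenced kidneys, and the study dissected kidneys of these genotypes for histology at 8 months of age without tying that age expressly to these libraries. Nothing states that replicates came from separate animals, so that p-values measure the spread between these samples. The labels number the libraries in an order that follows the groups closely, and an effect of that order cannot be told apart from genotype.

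Libraries held 16504419 to 24668827 expected counts, so that 3 counts, the limit a count of 0 allows, equalled 0.122 to 0.182 CPM. Libraries of the same group correlated at r = 0.978 to 0.992 across genes, and no pair was identical. Tfe3 stood at 34.2 to 37.1 CPM in Cre(-) and 45.6 to 59.9 CPM in the KSP-Cre(+) libraries. Hif1a stood at 163 to 198 CPM in Hif1α KO and 184 to 232 CPM in KI (adjusted p = 0.372), and Epas1, the gene of HIF2α, at 136 to 149 CPM in Hif2α KO and 173 to 192 CPM in KI (adjusted p = 0.0788). These are sums over whole genes in whole kidneys, with exons outside the floxed part and cells without Cre, and do not check the deletions. The tissue is bulk kidney, so fewer cells of a type and less RNA per cell cannot be told apart. The summed level of 6 kidney epithelial genes was 13062 to 15991 CPM in Cre(-), 1233 to 1983 CPM in KI and 2369 to 5909 CPM in the other groups.

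KI replicate 2 stood apart from all other libraries. Its 16 B cell genes summed to 251 CPM against 13.2 to 162 CPM elsewhere, its 6 adipocyte genes to 1844 CPM against at most 378 CPM, and its Iglc1 to 242 CPM against at most 75 CPM. Many results that include the KI group are therefore also given without it. The part of these cells in those results was not tested.

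Antibody message is split at the heavy chain end, and the choice between the ends of Ighm is shown because it separates the secreted from the membrane form in the values below. Both lines start with the same 30 coding bases of the last shared exon, in lower case, and the capitals mark the coding bases that only that form has, down to the stop codon. The secreted end is read on from the same exon (62 bases, GRCm38 chr12:113420867-113420928, minus strand). The membrane end lies in 2 further exons (125 bases between 113419068 and 113418826), the first of which spans chr12:113418953-113419068. The heavy constant genes lie in a row on the minus strand of chromosome 12, Ighm at 113418558-113422730, Ighg3 at 113356224-113361232, Ighg2b at 113302965-113307933, Ighg2c at 113285325-113288932 and Igha at 113254830-113260236, Igkc lies at chr6:70726435-70726966, Iglc1 at chr16:19061618-19062071 and Jchain at chr5:88519809-88527891. Sequences are from the GENCODE M21 transcripts.
Ighm secreted end: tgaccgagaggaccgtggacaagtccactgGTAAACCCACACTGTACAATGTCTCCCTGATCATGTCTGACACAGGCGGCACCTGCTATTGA
Ighm membrane end: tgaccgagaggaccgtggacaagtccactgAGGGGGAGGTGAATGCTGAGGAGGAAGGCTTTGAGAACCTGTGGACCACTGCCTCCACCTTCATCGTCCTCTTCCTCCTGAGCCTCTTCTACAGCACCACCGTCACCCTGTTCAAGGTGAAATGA

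Variable genes resemble each other, which bears on how far 75-base reads can separate them. The last 150 coding bases are shown for Ighv1-53, Ighv1-26 and Ighv14-4, the most abundant Ighv members, and for Ighv1-7, the leading gene of a single library, with the 41 positions at which the 4 sequences are not all alike in capitals. Ighv1-26, Ighv1-7 and Ighv14-4 differ from Ighv1-53 at 12, 15 and 32 of these positions. All lie on the minus strand of chromosome 12 of GRCm38, at 115158403-115158552, 114788372-114788521, 114538495-114538644 and 114176438-114176587 in the order printed after their names: Ighv1-53, Ighv1-26, Ighv1-7 and Ighv14-4.
Ighv1-53: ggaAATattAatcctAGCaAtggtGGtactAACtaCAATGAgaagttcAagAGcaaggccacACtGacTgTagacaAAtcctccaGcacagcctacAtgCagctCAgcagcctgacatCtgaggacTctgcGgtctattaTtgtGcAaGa
Ighv1-26: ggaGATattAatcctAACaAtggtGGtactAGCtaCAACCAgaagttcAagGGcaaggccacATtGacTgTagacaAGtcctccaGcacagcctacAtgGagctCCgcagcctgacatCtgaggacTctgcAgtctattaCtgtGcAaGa
Ighv1-7: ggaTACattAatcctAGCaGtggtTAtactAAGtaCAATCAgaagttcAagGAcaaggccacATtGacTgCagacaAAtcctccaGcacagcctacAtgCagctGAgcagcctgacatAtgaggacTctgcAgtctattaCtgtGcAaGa
Ighv14-4: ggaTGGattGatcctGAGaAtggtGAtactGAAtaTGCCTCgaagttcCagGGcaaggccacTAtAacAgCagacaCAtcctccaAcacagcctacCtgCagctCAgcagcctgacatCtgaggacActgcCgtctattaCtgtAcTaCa
For the kappa chain the pair Igkv3-2 and Igkv3-4 is shown (plus strand of chromosome 6, 70698918-70699067 and 70672228-70672377), with the 15 positions that differ in capitals.
Igkv3-2: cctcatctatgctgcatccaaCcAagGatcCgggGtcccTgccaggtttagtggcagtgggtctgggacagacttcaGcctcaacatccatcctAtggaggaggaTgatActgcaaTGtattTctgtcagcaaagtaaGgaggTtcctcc
Igkv3-4: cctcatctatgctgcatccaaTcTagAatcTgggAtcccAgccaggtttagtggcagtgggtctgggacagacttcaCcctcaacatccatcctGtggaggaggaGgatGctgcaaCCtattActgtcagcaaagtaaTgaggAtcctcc
Over the Ighv members a median of 93.3% of all 75-base windows occurred in no other transcript of the annotation, and over the Igkv members 88.7%. The lowest shares were 2.81% for Ighv1-71 and 40.5% for Igkv6-20, and counts of such genes could be split among relatives. Rearranged genes also carry junctions and somatic mutations that these germline letters do not show.

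Antibody message took a larger share of every KSP-Cre(+) library than of any Cre(-) library. The members made up 0.0419% ± 0.0210 (SD, n = 4) of all counts in Cre(-), 0.284% ± 0.104 (n = 3) in KI, 1.07% ± 0.866 (n = 4) in Hif1α KO, 1.07% ± 0.377 (n = 3) in Hif2α KO and 1.31% ± 0.570 (n = 3) in DKO. By library the share was 0.0246%, 0.0683%, 0.0493% and 0.0253% in Cre(-), and 0.328%, 0.359% and 0.166% in KI. The 3 KI libraries thus lay above all 4 Cre(-) libraries, and the KI mean without replicate 2 was 0.247%. The Hif1α KO libraries held 0.440%, 0.282%, 2.11% and 1.47%, the Hif2α KO libraries 1.51%, 0.894% and 0.821%, and the DKO libraries 1.53%, 1.74% and 0.661%. All Hif2α KO and DKO libraries lay above the KI libraries, whereas Hif1α KO replicate 2 lay within the KI range. These shares were not tested, and they depend on the scale: of TPM, which divides by transcript length, the members took 0.106%, 0.731%, 2.59%, 2.56% and 3.21% on average in the same order of groups.

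Against Cre(-), the IgM heavy chain and the kappa chain rose in PRCC-TFE3 KI kidneys. Ighm stood at 18.1, 205, 116 and 16.0 CPM in Cre(-) and at 1220, 918 and 653 CPM in KI, so that the groups did not overlap. Its log2 fold change was 3.39 (SE 0.87, edgeR adjusted p = 0.00338), a 10.5-fold rise. Igkc stood at 116, 270, 218 and 143 CPM in Cre(-) and at 1197, 863 and 676 CPM in KI, also without overlap, with a log2 fold change of 2.29 (SE 0.54, adjusted p = 0.00168). Both calls held in each of the 7 fits that left out 1 library, in which the change of Ighm ran from 3.04 to 4.22 on the log2 scale, the highest without Cre(-) replicate 2.

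Of the 13 members that are constant genes or Jchain, 8 rose in KI against Cre(-), namely Ighm, Ighd, Ighg3, Ighe, Igkc, Iglc1, Iglc2 and Iglc3, and none fell (0 also at an unadjusted p under 0.05, and 0 by DESeq2). Among all 17011 genes tested 31.6% rose and 29.3% fell in this contrast, 60.9% in either direction. Without KI replicate 2, 4 of the 13 were called. Ighg3, an IgG class raised by bacterial carbohydrate, was at 0.069, 1.82, 0.595 and 4.86 CPM in Cre(-) and at 16.5, 129 and 0.399 CPM in KI. Its log2 fold change of 4.70 (SE 1.35, adjusted p = 0.00711) fell to 2.17 (adjusted p = 0.179) without KI replicate 2. Iglc1 stood at 2.08 to 8.36 CPM in Cre(-) and at 3.96, 242 and 2.28 CPM in KI, so its log2 fold change of 4.17 (adjusted p = 0.00989) turned to -0.56 (adjusted p = 0.661) without that library. Ighd, at 1.95, 13.0 and 0.855 CPM in KI, likewise had an adjusted p of 0.00818 with replicate 2 and 0.268 without it. Iglc3 (log2 fold change 2.92, adjusted p = 0.0215) lost its call without Cre(-) replicate 1 (0.0505), Cre(-) replicate 2 (0.0515) or KI replicate 2 (0.113), and Ighe, at most 4.25 CPM in any library, lost it without KI replicate 1 (0.361). Iglc2 (log2 fold change 2.87, SE 0.76, adjusted p = 0.00397) kept its call in all 7 fits.

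The remaining constant genes did not pass the test in KI against Cre(-). Jchain stood at 14.5, 38.7, 18.5 and 14.2 CPM in Cre(-) and at 42.9, 39.6 and 16.7 CPM in KI, which overlap (log2 fold change 0.62, SE 0.64, adjusted p = 0.425). Igha stood at 72.0, 127, 55.0 and 67.0 CPM in Cre(-) and at 39.4, 497 and 42.5 CPM in KI. KI replicates 1 and 3 thus lay below every Cre(-) library and replicate 2 far above (log2 fold change 1.27, adjusted p = 0.227, and -0.97 without replicate 2). Ighg2c (1.51, adjusted p = 0.186), Ighg2b (1.42, adjusted p = 0.137) and Ighg1 (2.13, adjusted p = 0.086) had positive log2 fold changes in KI. Over the 161 members tested (Ighv1-83, Ighv15-2 and Igkv8-34 were too low in most libraries), 21 rose and 0 fell, 13% against the 31.6% of all genes that rose. DESeq2 called 28 members higher and 1 lower. The median log2 fold change of the members was 1.27 beside 0.03 over all genes. Of all 164 members, 15 had every KI library above every Cre(-) library, where 28.9% of all genes tested did. For 2 members every KI library lay below, a direction for which no share of all genes was taken. Members entered by their mean count, so the counts over all members and the median support nothing by themselves.

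**Figure D1:**
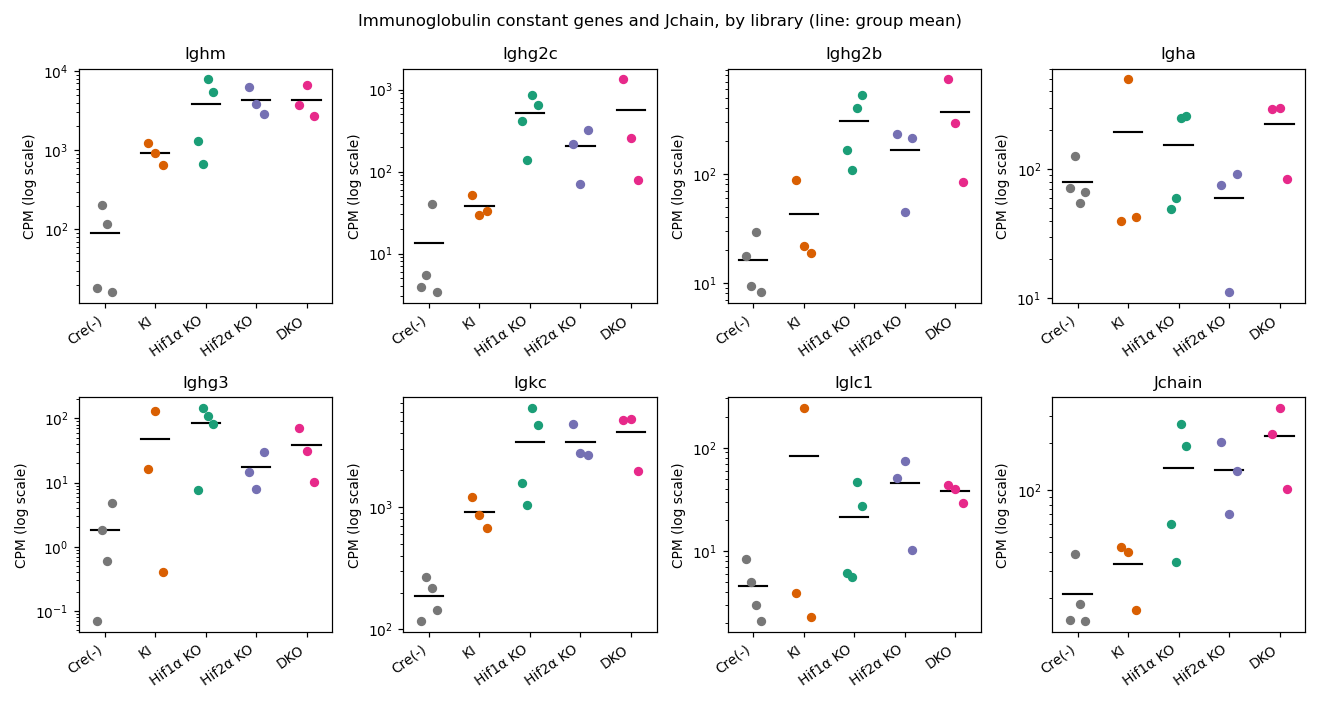
Each panel plots the CPM (log scale) of 1 constant gene or Jchain in every library of the 5 groups, with a line at the group mean. The 3 KI libraries of Ighm sit between 653 and 1220 CPM above all Cre(-) libraries, and Iglc1 and Igha show the single high KI library at 242 and 497 CPM.

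Against Cre(-), Ighm, Igkc and Jchain rose in Hif1α KO, Hif2α KO and DKO kidneys. Ighm stood at 1325, 677, 7886 and 5373 CPM in Hif1α KO, at 6211, 3878 and 2887 CPM in Hif2α KO, and at 3745, 6606 and 2672 CPM in DKO. The log2 fold changes against Cre(-) were 5.42 (SE 0.93, adjusted p = 0.000117), 5.60 (SE 0.95, adjusted p = 0.000114) and 5.61 (SE 0.96, adjusted p = 0.000129). Without Cre(-) replicate 2, the highest Cre(-) library, they were 6.26, 6.45 and 6.45, and without Hif1α KO replicate 3 the first was 4.8. Igkc rose by 4.19 (SE 0.56, adjusted p = 1.02e-05), 4.18 (SE 0.57, adjusted p = 1.38e-05) and 4.46 (SE 0.58, adjusted p = 9.87e-06). Jchain, which had not passed in KI, rose in all 3: by 2.69 (adjusted p = 0.00153), 2.65 (0.00228) and 3.37 (0.000438).

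Of the 13 members that are constant genes or Jchain, 11 rose in Hif1α KO, 9 in Hif2α KO and 11 in DKO against Cre(-), and none fell, which was also so at an unadjusted p under 0.05 and by DESeq2. Igha was called in none of the 3 (adjusted p = 0.336, 0.693 and 0.16). Over all members tested, 121, 88 and 112 of 161 rose and 0 fell, 75.2%, 54.7% and 69.6% of them, where 31.9%, 32% and 30.4% of all genes rose, 30.1%, 29.9% and 27.9% fell, and 61.9%, 61.9% and 58.3% did either. Every library of the group lay above every Cre(-) library for 58, 69 and 107 members, beside 28.8%, 30.9% and 30.8% of all genes. These counts describe members chosen by their mean, which the high groups set, and support nothing by themselves. Without Hif2α KO replicate 1 the count of 88 was 58. Of the calls on constant genes, Iglc1 in Hif2α KO and in DKO, Ighd in Hif1α KO and Ighg3 in DKO were lost without at least 1 single library, with adjusted p up to 0.105, 0.142 and 0.058 for Iglc1, Ighd and Ighg3.

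Whether floxing of either HIF α gene changed the antibody genes of PRCC-TFE3 kidneys is asked by the contrasts with KI, which share the same 3 KI libraries. In DKO against KI, 4 of the 13 members that are constant genes or Jchain rose and 0 fell, where 6.53% of all genes rose and 6.19% fell. The 4 were the kappa gene, the IgG genes Ighg2c and Ighg2b, and Jchain. Igkc stood at 5175, 5201 and 1947 CPM in DKO, above all 3 KI libraries (log2 fold change 2.17, SE 0.59, adjusted p = 0.027). Ighg2c stood at 51.3, 29.3 and 32.8 CPM in KI and at 1342, 256 and 79.4 CPM in DKO, also without overlap (3.89, SE 1.10, adjusted p = 0.0321). Ighg2b stood at 88.1, 21.9 and 18.7 CPM in KI and at 739, 296 and 83.8 CPM in DKO, where the lowest DKO library lay under KI replicate 1 (3.12, SE 0.89, adjusted p = 0.0341). Jchain stood at 229, 337 and 102 CPM in DKO, all above KI (2.75, SE 0.71, adjusted p = 0.0223). None of the 4 calls held in all 6 fits that left out 1 library. Without DKO replicate 1 the change of Ighg2c was 2.15 (adjusted p = 0.155) and that of Ighg2b 2.15 (adjusted p = 0.118). Without KI replicate 2 the adjusted p was 0.0732 for Igkc, 0.0916 for Ighg2c, 0.101 for Ighg2b and 0.0518 for Jchain, and without KI replicate 3 it was 0.106, 0.11, 0.126 and 0.0931. Without DKO replicate 2 it was 0.0936, 0.0547, 0.0709 and 0.0894, Igkc also missed the threshold without DKO replicate 1 (0.0588), and Ighg2c without KI replicate 1 (0.0574).

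In Hif1α KO and Hif2α KO against KI, no constant gene and not Jchain passed the edgeR test, although 7 and 5 of the 13 were higher at an unadjusted p under 0.05 and DESeq2 called 4 and 1. Of all genes, 2.57% and 0.741% rose by edgeR at the adjusted threshold. Igkc stood at 1560, 1033, 6411 and 4674 CPM in Hif1α KO (log2 fold change 1.91, SE 0.56, adjusted p = 0.0594) and at 4753, 2754 and 2673 CPM in Hif2α KO (1.90, SE 0.58, adjusted p = 0.102). The Hif2α KO libraries all lay above KI, whereas Hif1α KO replicate 2 lay within it. Ighg2c stood at 415, 139, 864 and 646 CPM in Hif1α KO (3.77, SE 1.07, adjusted p = 0.0516) and at 218, 69.8 and 322 CPM in Hif2α KO (2.43, adjusted p = 0.219), in each case above every KI library. For Ighm the change was 2.04 (SE 0.89, adjusted p = 0.193) and 2.22 (SE 0.93, adjusted p = 0.21), and in DKO 2.22 (SE 0.93, adjusted p = 0.125). Without KI replicate 2 the edgeR adjusted p for Igkc, Ighg2c and Ighm was 0.148, 0.144 and 0.317 in Hif1α KO. In Hif2α KO it was 0.195, 0.366 and 0.33, and that of Ighm in DKO was 0.22. The difference between these contrasts was not tested, and their shared controls make them alike by construction.

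Over all members tested, 17 rose in Hif1α KO, 2 in Hif2α KO and 40 in DKO against KI and 0 fell, while DESeq2 called 46, 24 and 56 higher and 0, 1 and 0 lower. At an unadjusted p under 0.05, 82, 55 and 87 were higher and 0, 1 and 1 lower. The called shares were 10.6%, 1.24% and 24.8%, beside 2.57%, 0.741% and 6.53% of all genes that rose, 2.86%, 0.647% and 6.19% that fell, and 5.44%, 1.39% and 12.7% in either direction. Every library of the group lay above every KI library for 31, 39 and 70 of the 164 members, beside 8.96%, 9.52% and 16.5% of all genes tested. Every one lay below for 0, 1 and 0 members. Median log2 fold changes were 2.5, 1.94 and 2.85, where those of all genes were within 0.01 of zero. Members were chosen by their mean count, which the knockout libraries largely set. These counts, shares and medians therefore support nothing by themselves. Without KI replicate 2 the counts were 3, 0 and 11 (53, 37 and 63 higher at an unadjusted p under 0.05), and without KI replicate 3 they were 4, 0 and 7. In Hif1α KO the other fits without 1 library gave 4 to 35, the highest without Hif1α KO replicate 2 and the lowest without replicate 3, and in DKO 14 to 29, the lowest without DKO replicate 2.

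**Figure D2:**
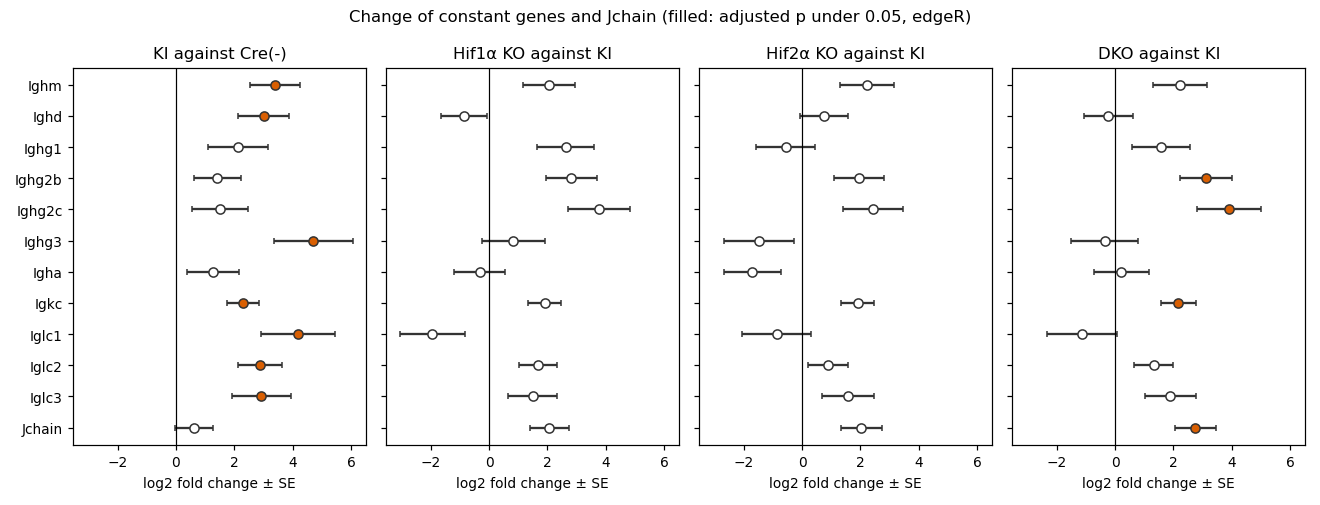
Points give the log2 fold change of each constant gene and Jchain in 4 contrasts, bars its standard error, and filled points an adjusted p under 0.05 (edgeR); Ighe, near the counting limit, is not drawn. In KI against Cre(-) the filled points lie between 2.29 and 4.70, in DKO against KI they are Igkc, Ighg2b, Ighg2c and Jchain, and the other contrasts have none.

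IgM was the leading heavy chain class in 15 of the 17 libraries and IgA in the remaining 2, which were Cre(-) replicates 1 and 4. Ighm took 15.4% to 57.8% of the heavy constant counts in Cre(-), 56.7% to 85.5% in KI, 59.3% to 80.1% in Hif1α KO, 80.6% to 96.5% in Hif2α KO and 59.6% to 90.8% in DKO. Igha took 61.4% (95% exact interval 59.0 to 63.7), 35.8%, 22.4% and 65.3% (63 to 67.6) in the 4 Cre(-) libraries. In the KI libraries it took 2.72%, 30.7% (30.2 to 31.2) and 5.57%, so that only replicate 2 reached the Cre(-) range. In the 10 knockout libraries it was at most 5.21%. The CPM of Igha overlapped between all groups. Per length, on TPM, the ranges of Igha were 26% to 68.8% in Cre(-), 3.56% to 35.3% in KI, 3.02% to 6.21% in Hif1α KO, 0.364% to 3.29% in Hif2α KO and 3.83% to 5.62% in DKO. The intervals cover counting error only, since reads without molecular identifiers are not independent molecules.

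The IgG classes together took 6.33% to 29.8% of the heavy constant counts in Cre(-), 8.84% to 12.7% in KI and 17.3% to 35.5% in Hif1α KO, all 4 Hif1α KO libraries above the 3 of KI. In Hif2α KO they took 3.17% to 16.5% and in DKO 6.21% to 35.6%, ranges that overlap with KI. Ighg1 was lowest in Hif2α KO among the knockout groups, at 9.71, 4.90 and 23.7 CPM beside 22.3, 11.4, 323 and 97.8 CPM in Hif1α KO, which overlap. These shares were not tested.

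**Figure D3:**
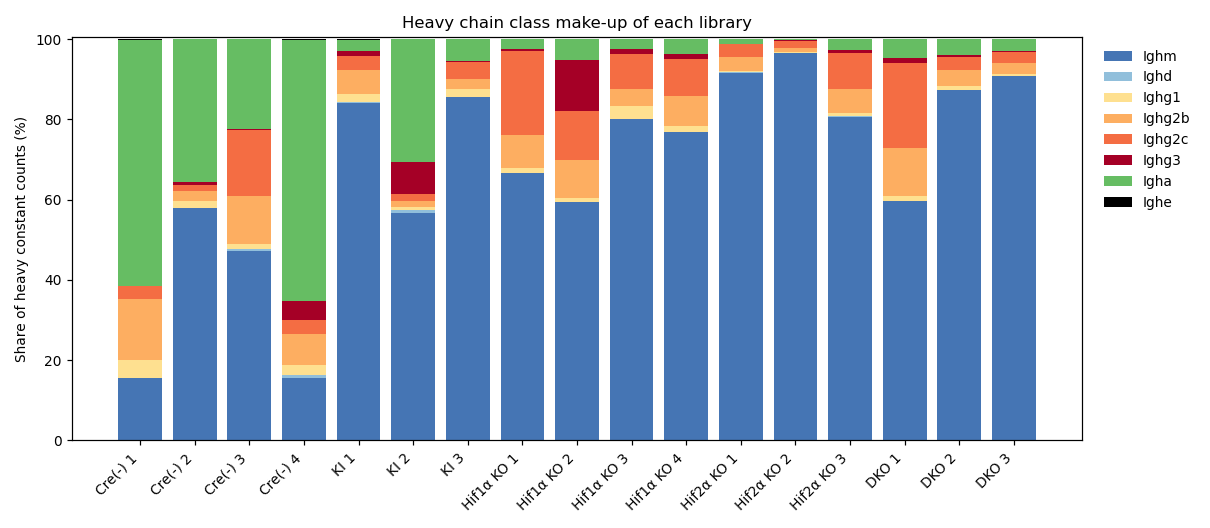
Stacked bars give, for each of the 17 libraries, the percentage of heavy constant counts from each heavy chain gene. Igha (green) takes 22.4% to 65.3% in the Cre(-) libraries and 30.7% in KI replicate 2, and at most 5.57% in all others, which are mostly Ighm (blue).

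Light chains were almost all kappa. Lambda constant genes took 2.38% to 7.78% of light chain counts in Cre(-) and 1.23% to 3.48% in the 10 knockout libraries. In KI they took 1.47%, 23.8% (95% exact interval 23.2 to 24.4) and 0.853%, and in replicate 2 Iglc1 supplied 89.8% of them. Its variable partner Iglv1 stood at 135 CPM in that library and at 1.38 and 0.798 CPM in the other KI libraries, and its rise against Cre(-) (log2 fold change 4.30, adjusted p = 0.0107) turned to -1.09 (adjusted p = 0.405) without it. The ratio of light to heavy constant TPM was 1.93 to 3.42 over all libraries. The ratio of Jchain TPM to that of its IgM and IgA partners was 0.101 to 0.139 in Cre(-) and 0.0191 to 0.0587 in all 13 KSP-Cre(+) libraries, without overlap.

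The secreted transcript of Ighm held most of the counts of its 2 forms in all libraries but Cre(-) replicate 4. The membrane transcript of Ighm took 2.64%, 7.03% and 2.25% of the counts assigned to the 2 forms in KI, 1.63% to 2.53% in Hif1α KO, 1.88% to 2.39% in Hif2α KO and 2.09% to 2.61% in DKO. In Cre(-) it took 45.5% (39.3 to 51.7), 4.51% (3.87 to 5.21), 5.54% (4.51 to 6.71) and 53.4% (47.0 to 59.6). The 2 high Cre(-) values are those of the libraries with least Ighm, where 120 and 135 membrane counts stood beside 144 and 118 secreted counts. Across Cre(-) the membrane counts ranged from 97 to 173, whereas the secreted counts ranged from 118 to 3666. Secreted Ighm averaged 65.3 TPM in Cre(-), 963 TPM in KI, 3921 TPM in Hif1α KO, 4647 TPM in Hif2α KO and 4758 TPM in DKO, and membrane Ighm 5.49, 35.4, 66.8, 90.3 and 98.3 TPM. RSEM divides reads of the shared exons between the forms by estimate, so these counts are not reads seen at the 2 ends.

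KI replicate 2 had the highest membrane share of the 13 KSP-Cre(+) libraries for Ighm (7.03%, interval 6.65 to 7.42, against 1.63% to 2.64%), Ighg2b (16.7%, 68 membrane counts, against at most 3.32%), Ighg2c (4.6%, 25 membrane counts, against at most 0.615%) and Igha (11.7%, 1078 membrane counts, against at most 6.30%). For Ighg1 and Ighg3 it ranked 3 of 13. Igkc per Cd79a, a signalling chain of the membrane B cell receptor, was 137 on TPM in this library and 390 to 1437 in the 16 others.

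No group had the same leading variable gene in all its libraries, but libraries of a group often shared a leader. For Ighv, 4 genes led in the 4 Cre(-) libraries and 3 in the 3 of Hif2α KO. Only 2 Ighv genes led in the 3 KI libraries, 3 in the 4 of Hif1α KO and 2 in the 3 of DKO. For Igkv the leaders numbered 3, 2, 3, 2 and 2 in Cre(-), KI, Hif1α KO, Hif2α KO and DKO. Ighv1-26 led in DKO replicates 1 and 3 (9.03% and 20.8%). Among Ighv members 8 genes were the most abundant of at least 1 of the 17 libraries, and among Igkv members also 8. In KI replicate 2, Ighv14-4 alone took 71.7% (95% exact interval 70.5 to 72.8) of 5863 Ighv counts, and Igkv3-2 55.2% (53.6 to 56.8) of its Igkv counts. In Hif2α KO replicate 3, Ighv1-26 took 59.6% (58.6 to 60.6) and Igkv4-57-1 50.4% (49.5 to 51.3). Ighv1-53 led in Hif1α KO replicate 3 with 41.9%, in DKO replicate 2 with 36%, in Hif2α KO replicate 2 with 32.1% and in KI replicate 1 with 30.8%. Ighv14-4 also led in KI replicate 3 with 27.1%. Those genes thus differ at up to 32 of the 150 end bases printed above.

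Some leading genes were nearly private to a library. Ighv1-7 stood at 226 CPM in Hif2α KO replicate 1, where it took 26.1% of the Ighv counts, and at no more than 7.18 CPM in any other library. Igkv4-57-1 stood at 282 CPM in Hif2α KO replicate 3, at 41.8 and 32.8 CPM in DKO replicate 2 and Hif1α KO replicate 4, and at no more than 5.74 CPM elsewhere. Igkv6-20 stood at 58.1 CPM in KI replicate 3, 32.7% of its Igkv counts, beside 4.88 and 0.969 CPM in the other KI libraries, with the limit that 40.5% of its windows are its own. Of the 151 variable members, 34 had over 50% of all their counts in 1 library, and the median member had 33.8% there. That top library was a Hif1α KO library for 66 members, a DKO library for 57, a Hif2α KO library for 24, a KI library for 4 and a Cre(-) library for none. This tally used raw counts and was not corrected for antibody totals or for the number of libraries per group. Those totals ran from 4569 counts in Cre(-) replicate 1 to 402080 in Hif1α KO replicate 3. Members also entered by their mean count, which the high libraries set.

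Other leading genes were shared. Igkv3-2 was the first or second kappa gene in 12 libraries, among them Cre(-) replicate 2 (30.9%), Hif2α KO replicates 1 and 2 (25.8% and 42.8%) and KI replicate 2. Igkv4-55 led in Hif1α KO replicate 3 (31.3%) and DKO replicate 2 (30.1%). In these 2 libraries, of different genotype, Ighv1-53 and Igkv4-55 were the leading pair.

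The effective number of variable genes, the inverse of the summed squared shares, tells how evenly the counts were spread. For Ighv it was 18 to 26.7 in Cre(-), 8.39, 1.91 and 8.16 in KI, 5.12 to 11.9 in Hif1α KO, 2.76 to 9.54 in Hif2α KO and 28, 6.51 and 9.14 in DKO. Every Cre(-) library was thus more even than every KI, Hif1α KO and Hif2α KO library, while DKO replicate 1 was the most even of all. For Igkv it was 8.24 to 26.8 in Cre(-), 3.06 to 10.2 in KI, 7.99 to 16 in Hif1α KO, 3.79 to 7.15 in Hif2α KO and 5.57 to 19.3 in DKO, and only Hif2α KO lay wholly below Cre(-). Counts differed widely beneath these values, from 275 to 842 Ighv counts in Cre(-) to 25256 in Hif1α KO replicate 3. The numbers were not tested.

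**Figure D4:**
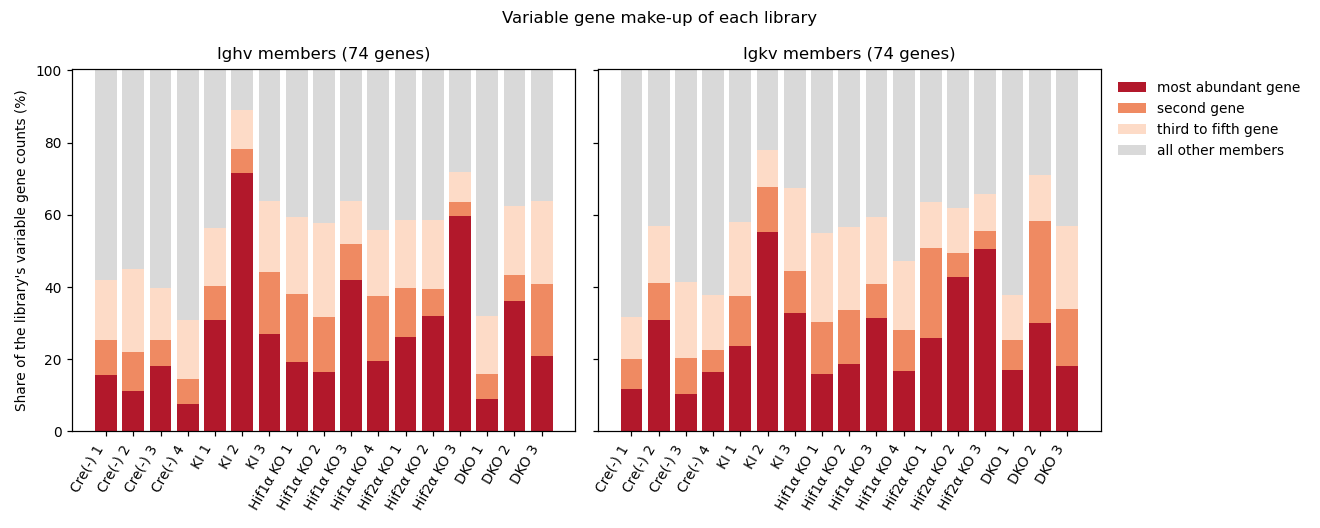
Bars divide the counts of the 74 Ighv members (left) and the 74 Igkv members (right) of each library among its most abundant gene, the second, the next 3 and all others, in percent. The first gene takes 71.7% of Ighv in KI replicate 2 and 59.6% in Hif2α KO replicate 3, and 7.64% to 18.2% in Cre(-).

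Single variable genes passed the test between groups, each beside the wide spread just described. Against Cre(-), Ighv14-4 (log2 fold change 8.19, SE 1.86, adjusted p = 0.00129) and Ighv8-12 (4.90, adjusted p = 0.00484) led the variable genes that rose in KI. Ighv14-4 stood at 0 to 0.728 CPM in Cre(-) and at 3.22, 226 and 21.4 CPM in KI. Its call held without any 1 library, with a change of 5.43 at the least, whereas Ighv8-12 lost its call without KI replicate 3 (adjusted p = 0.0871).

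Ighv1-80 was the variable gene with a rise against KI in all 3 knockout groups together with Igkv13-85. It stood at 3.10, 2.53 and 0.171 CPM in KI, 16.5, 15.2, 34.8 and 48.4 CPM in Hif1α KO, 39.7, 6.78 and 10.7 CPM in Hif2α KO and 31.1, 59.2 and 32.1 CPM in DKO, every knockout library above every KI library. The log2 fold changes were 3.89 (SE 0.76, adjusted p = 0.0129), 3.29 (SE 0.77, adjusted p = 0.0496) and 4.39 (SE 0.79, adjusted p = 0.0043). The Hif1α KO and DKO calls held in every fit without 1 library, and the Hif2α KO call in 1 of 6. Ighv1-80 also rose against Cre(-), by 5.39, 4.8 and 5.89 (adjusted p = 2.44e-05, 9.85e-05 and 1.62e-05). Igkv13-85, at 0, 0.108 and 0 CPM in KI, below the limit of 3 counts, stood at 1.04 to 3.22 CPM in Hif1α KO, 4.10 to 12.6 CPM in Hif2α KO and 1.02 to 9.54 CPM in DKO (adjusted p = 0.0224, 0.0185 and 0.00591). Its call held in 2 of 7, 3 of 6 and 6 of 6 fits.

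In Hif1α KO against KI, Ighv5-17 (3.94 to 26.5 CPM against at most 0.747 CPM, log2 fold change 5.31, adjusted p = 0.0114) and Igkv4-59 (7.62 to 30 CPM against at most 2.41 CPM, 3.84, adjusted p = 0.0119) kept their calls without any 1 library. Igkv12-46 (5.68, adjusted p = 0.0285) lost its call in 3 of 7 fits, without KI replicate 2, KI replicate 3 or Hif1α KO replicate 4. In DKO against KI, Igkv5-43 (21.8, 90.9 and 42.1 CPM against at most 3.05 CPM, 5.19, adjusted p = 0.0045) and Igkv4-70 (5.02, adjusted p = 0.0126) kept theirs, and Ighv5-16 (5.38, adjusted p = 0.0118) lost it without DKO replicate 2 (0.0535). Against Cre(-), the lowest adjusted p among variable genes beside Ighv1-80 were those of Ighv1-26 in Hif1α KO (5.77, adjusted p = 9.24e-05), Igkv4-59 in Hif1α KO (adjusted p = 9.58e-05), Ighv1-26 in Hif2α KO (6.23, adjusted p = 6.03e-05), Ighv9-3 in Hif2α KO (3.84, adjusted p = 0.000276), and Igkv3-4 (7.63, adjusted p = 9.15e-05) and Ighv1-20 (adjusted p = 0.000127) in DKO, all of which held without any 1 library. Ighv1-20 stood at 0 to 0.107 CPM in Cre(-), under the limit of 3 counts, so no fold is given, and at 7.35, 3.9 and 5.17 CPM in DKO. The shares of windows found in no other transcript were 57.5% for Igkv4-59 and 56.4% for Igkv13-85.

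Of 13 genes that plasma cells use beside the antibody genes, 6 rose against Cre(-) in KI, 9 in Hif1α KO, 9 in Hif2α KO and 10 in DKO, and 1 fell in each, Eaf2. Of all genes 31.6%, 31.9%, 32% and 30.4% rose in these contrasts, and without KI replicate 2 the KI count was 3. In KI, Irf4, a transcription factor of plasma cell differentiation, rose by 2.60 on the log2 scale (SE 0.45, adjusted p = 0.000115) and Xbp1, which drives the secretory apparatus, by 0.50 (SE 0.10, adjusted p = 0.000532). Sdc1, a plasma cell surface marker that epithelia also express, rose by 1.74 (adjusted p = 3.98e-07). Pou2af1 (3.07), Tnfrsf13b (2.06) and Fcrl5 (4.51) also rose, but without KI replicate 2 their adjusted p were 0.0713, 0.114 and 0.181. Mzb1, a chaperone of IgM secretion, stood at 2.06 to 3.04 CPM in Cre(-) and at 3.16, 10.3 and 2.17 CPM in KI (adjusted p = 0.145). It rose in all 3 knockout groups (adjusted p = 0.00517, 0.0053 and 0.00317). Tnfrsf17, Derl3, Slamf7, Prdm1 and Txndc5 were also not called in KI, with log2 fold changes of 0.65, 0.42, 0.39, 0.31 and -0.08. Their adjusted p were 0.626, 0.555, 0.465, 0.436 and 0.707. Against KI, Slamf7 in DKO was the only one of the 13 called (1.60, SE 0.46, adjusted p = 0.0333). That call was lost in 5 of 6 fits without 1 library, with adjusted p up to 0.114. None of the 13 was called in Hif1α KO or Hif2α KO, where 1 and 3 were higher at an unadjusted p under 0.05 and DESeq2 called 0 and 1. Without KI replicate 2 the counts called higher were 0 in Hif1α KO, 0 in Hif2α KO and 3 in DKO, with 5, 6 and 9 higher at an unadjusted p under 0.05.

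The calls on B cell genes in KI rested on a single library. Of 16 genes, 14 rose in KI against Cre(-), beside 31.6% of all genes, and 1 fell, Cr2, and without KI replicate 2 only 2 rose. Their sum was 13.2 to 18.5 CPM in Cre(-), 40.6, 251 and 15.6 CPM in KI, 21.3 to 136 CPM in Hif1α KO, 63.8 to 162 CPM in Hif2α KO and 47.4 to 125 CPM in DKO, and the KI mean of 102 CPM was 28.1 CPM without replicate 2. Cd79a had a log2 fold change of 3.38 in KI (adjusted p = 0.00573) that was 1.53 (adjusted p = 0.156) without replicate 2. Spib, a B cell transcription factor, kept its call (3.45, adjusted p = 0.000248). In Hif1α KO, Hif2α KO and DKO 13, 14 and 15 rose against Cre(-), where 31.9%, 32% and 30.4% of all genes rose. In Hif1α KO 1 fell, again Cr2 (log2 fold change -1.23, adjusted p = 0.0108), and 0 fell in Hif2α KO and DKO. The count of 13 was 6 to 8 without Hif1α KO replicate 3 or any single Cre(-) library, and that of 14 was 8 without Hif2α KO replicate 1. Against KI none of the 16 was called in any knockout group by edgeR or DESeq2 (0, 1 and 0 higher at an unadjusted p under 0.05). Without KI replicate 2, edgeR called 0, 0 and 1 and 8, 12 and 13 were higher at an unadjusted p under 0.05.

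**Figure D5:**
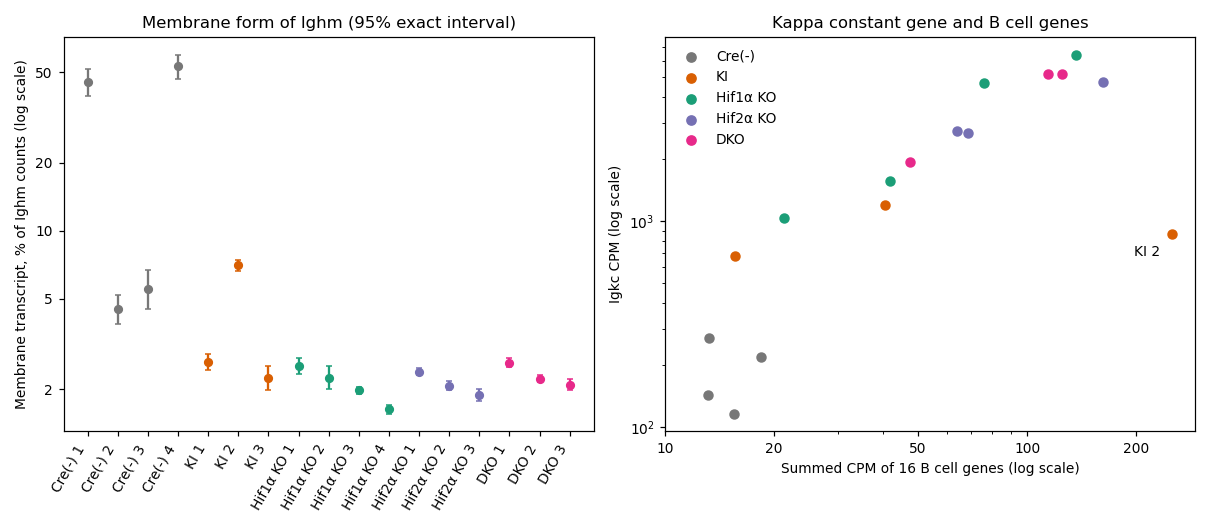
Left, the membrane transcript as a percentage of Ighm counts in each library (log scale) with 95% exact intervals; right, Igkc CPM against the summed CPM of 16 B cell genes (both log scales), 1 point per library. KI replicate 2 has 7.03% membrane transcript, the highest of the KSP-Cre(+) libraries but within the Cre(-) range of 4.51% to 53.4%. On the right, its 251 CPM of B cell genes at 863 CPM of Igkc lie apart from the other 16 libraries.

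Of 13 T cell genes, 3 rose in KI against Cre(-), where 31.6% of all genes rose, and 9, 12 and 12 in the knockout groups, where 31.9%, 32% and 30.4% did. Without KI replicate 2 the KI count was 0, also at an unadjusted p under 0.05, without KI replicate 1 or Cre(-) replicate 3 it was 1 and without KI replicate 3 it was 8. All 13 T cell genes had positive log2 fold changes against KI in each knockout group. At an unadjusted p under 0.05, 3, 11 and 8 of them were higher in Hif1α KO, Hif2α KO and DKO, and DESeq2 called 0, 2 and 7. By edgeR at the adjusted threshold 0 rose in Hif1α KO and 0 in Hif2α KO, where 2.57% and 0.741% of all genes rose. In DKO against KI 5 T cell genes rose, beside 6.53% of all genes. That count was 6 without KI replicate 2, 0 without KI replicate 3, 1 without KI replicate 1, DKO replicate 1 or DKO replicate 2, and 2 without DKO replicate 3. Of 10 macrophage genes, 9 rose in KI, 8 in Hif1α KO, 9 in Hif2α KO and 9 in DKO against Cre(-). Against KI, 8, 9 and 9 of them had positive log2 fold changes in the 3 knockout groups. The medians were small, 0.40, 0.43 and 0.24, beside -0.00, -0.01 and -0.00 over all genes. In Hif2α KO 0 were called higher, where 0.741% of all genes rose. Adgre1 (adjusted p = 0.0364), Cd14 (0.0261) and Mrc1 (0.0177) rose in Hif1α KO and Adgre1 in DKO (0.0197), where 2.57% and 6.53% of all genes rose. The count of 3 was 1 without KI replicate 1 and 0 without Hif1α KO replicate 1 or 3, and the call of Adgre1 in DKO was lost without KI replicate 1, KI replicate 3, DKO replicate 2 or DKO replicate 3. Cd68, a lysosomal membrane protein, was lower than in KI in Hif1α KO (-0.93, adjusted p = 0.0166) and DKO (-1.39, adjusted p = 0.00209), the former not without Hif1α KO replicate 1 (adjusted p = 0.0534) or 3 (0.0584). It stood at 1128, 1060 and 1151 CPM in KI and made up most of the summed level of the list there, 1595 to 1599 CPM. The list summed to 176 to 216 CPM in Cre(-) and 909 to 1449 CPM in the knockout groups. The part of these cells in the antibody values was not tested.

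Of 12 tested genes of 13 that attract B cells and plasma cells or keep them alive, 7 rose and 1 fell in KI against Cre(-), where 31.6% of all genes rose and 29.3% fell. Cxcl13, the chemokine that draws B cells into follicles, rose by 4.51 in KI (SE 0.55, adjusted p = 3.88e-06). It was lower in DKO than in KI, by -2.49 (SE 0.53, adjusted p = 0.00945), and both calls held in every fit without 1 library. Its change against KI was -1.52 in Hif1α KO (adjusted p = 0.0687) and -1.58 in Hif2α KO (adjusted p = 0.115). Tnfsf13b, the survival factor BAFF, rose in KI by 1.33 (SE 0.28, adjusted p = 0.000798) and was 0.94 higher again in DKO (SE 0.29, adjusted p = 0.0423), a call lost in 5 of 6 fits with adjusted p up to 0.153. Ccl28, which recruits IgA plasma cells to mucosa, was higher in Hif1α KO than in KI (1.52, SE 0.35, adjusted p = 0.0233), and Cxcl12, which holds plasma cells in bone marrow, lower (-0.42, SE 0.10, adjusted p = 0.0309). The first call was lost without KI replicate 1, KI replicate 2 or Hif1α KO replicate 1 (adjusted p up to 0.0855), and the second in 5 of 7 fits (up to 0.107). The KI count of 7 was 4 without KI replicate 2, Cre(-) replicate 1 or Cre(-) replicate 2.

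Of 9 antibody receptor and transport genes, 5 rose and 3 fell in KI, 5 and 2 in Hif1α KO, and 6 and 3 in both other knockout groups, against Cre(-), where 30.4% to 32% of all genes rose and 27.9% to 30.1% fell. Pigr, which carries polymeric IgA and IgM across epithelia, rose by 0.92 in KI (SE 0.17, adjusted p = 0.000244) and by 1.04, 1.09 and 0.99 in Hif1α KO, Hif2α KO and DKO. Fcgrt, the neonatal Fc receptor that salvages IgG, fell by 1.10 in KI (SE 0.18, adjusted p = 6.43e-05). Fcamr, a receptor for IgA and IgM, fell by 2.73 (adjusted p = 1.17e-06). The activating IgG receptors Fcgr1, Fcgr3 and Fcgr4 rose by 2.05, 2.36 and 1.60 (adjusted p = 1.66e-05, 1.42e-08 and 9.81e-05), whereas the inhibitory Fcgr2b fell by 0.54 (adjusted p = 0.00159). Against KI, Fcgr2b was higher in Hif1α KO (0.67, SE 0.13, adjusted p = 0.0111), in every fit without 1 library. Fcgr3 (0.60, adjusted p = 0.0348) and Fcer1g (0.60, adjusted p = 0.0452) passed in Hif1α KO and Fcer1g in DKO (0.59, adjusted p = 0.0372), each lost in at least 5 of these fits with adjusted p up to 0.109, 0.137 and 0.133.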

How the data were processed

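Kidney RNA of 17 samples was profiled by stranded mRNA sequencing with 75-base single-end reads. Per the submitters' processing notes reads were trimmed with Trim Galore 0.6.6 and cutadapt 2.5 and aligned with STAR 2.7.9a, and RSEM estimated transcript levels. The study's methods name a human build for all samples, while the labels also list GRCm38, the build of the deposited mouse transcripts. The authors deposited expected counts, which need not be whole, and TPM, which divide by transcript length, both per transcript with no further normalization. Here 116770 of 119353 transcripts (97.8%) were matched to GENCODE M21 and summed to 35971 genes, and expected counts were rounded. No column of per-sample values lacked a sample (0).

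Genes passing filterByExpr (minimum count 10, 17011 genes, 18960 left out) were tested in 1 fit of all 17 libraries with edgeR 4.0.16 quasi-likelihood tests, TMM scaling and Benjamini-Hochberg adjustment over all genes, with a threshold of 0.05, in R 4.3.3. CPM use TMM-scaled library sizes. The tests were checked on simulated data. DESeq2 1.42.0, limma 3.58.1 on log2 TPM, other scalings, filters and control sets, the replicate block and leaving out each library were alternatives. Intervals are 95% exact binomial. Same-numbered samples did not deviate together.

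The members and gene lists were chosen with earlier results of these data known. The text names all constant genes and Jchain, the 3 heavy, kappa and lambda variable genes with the highest counts, members called in a contrast (the 5 with the lowest adjusted p where over 8 were), variable genes with over 25% of the Ighv or Igkv counts of a library, and list genes. Leaving out libraries for the other gene lists was chosen after seeing the data. A result for 1 gene of the B cell list is not reported here.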

Additional observations from a re-analysis of the deposited data

Results flagged for a closer look

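Of 88 sets of values tested for 1 library far from the others of its group, 10 stood out by Dixon's criterion for 4 samples. The criterion marks about 1 in 20 sets by chance where values are independent and normally spread. The sets here overlap, and some genes were named because they led a single library. The 10 of 88 therefore cannot be read against that rate. Only Cre(-) and Hif1α KO hold the 4 libraries needed. In Cre(-) replicate 3, Ighg2c stood at 40.49 CPM against 3.344 to 5.509 CPM in the other Cre(-) libraries, and Iglc2 at 2.845 CPM against 0.8834 to 1.123 CPM. In Cre(-) replicate 2, Igkv4-57-1 stood at 1.123 CPM against 0.5293 to 0.5679 CPM, and Ighv1-20 at 0.107 CPM where the other 3 were at 0, all of them under the limit of 3 counts. Lambda took 7.78% of light chain counts in Cre(-) replicate 1 against 2.38% to 2.97%, and the effective number of Ighv genes was 26.7 in Cre(-) replicate 4 against 18 to 19.1.

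In Hif1α KO replicate 3, Ighv1-53 stood at 527.3 CPM against 11.47 to 77.51 CPM, and Igkv4-55 at 642.8 CPM against 33.47 to 59.68 CPM. In Hif1α KO replicate 4, Igkv4-57-1 stood at 32.77 CPM against 0.1557 to 2.627 CPM, and Igkv12-46 at 76.85 CPM against 4.774 to 9.606 CPM.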

How the results depend on the processing

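Members called higher or lower against Cre(-) numbered 21, 121, 88 and 112 in KI, Hif1α KO, Hif2α KO and DKO. With only the 2 floxed Cre(-) libraries they were 10 (9 higher), 67, 37 and 61, and with only the 2 unfloxed ones 10, 61, 45 and 65, fits with fewer controls. Leaving out 1 library gave 13 to 20, 87 to 124, 58 to 86 and 78 to 106. Against KI the counts were 17, 2 and 40. They were 46 and 25 by DESeq2 in Hif1α KO and Hif2α KO, 4, 0 and 25 with only the groups compared, 1 in Hif2α KO with DESeq2 size factors and 1 on log2(TPM + 0.1), and 3 to 35, 0 to 4 and 7 to 29 without 1 library. With the replicate block they were 6, 1 and 27, although the numbers do not pair the samples (correlation of the 31 same-numbered pairs -0.22 to 0.25, 3 of 17 libraries closest to their own number), and against Cre(-) 17, 106, 78 and 104. The cause of these shifts was not tested.

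Of genes that changed sign, Igha in Hif1α KO against KI was 0.31 on log2(TPM + 1) and 0.31 on log2(TPM + 0.1), and Iglc1 0.07 and 0.11. In Hif2α KO Ighg3 was 0.26 and 0.63 and Iglc1 1.37 and 1.43. In DKO Ighg3 was 1.19 and 1.58 (0.38 with the block), Ighd 0.39 and 0.68, and Iglc1 1.52 and 1.59. TPM values shift the median of all genes by 0.38 to 0.48 in KI against Cre(-). Without 1 library, Igha ran from -0.97 to 1.75 and Iglc1 from -0.56 to 4.74 in KI against Cre(-). Against KI, Igha ran from -0.81 to 1.91, Ighd from -1.46 to 1.06 and Iglc1 from -2.67 to 2.79 in Hif1α KO. In Hif2α KO Ighg3 ran from -2.12 to 1.05, Igha from -2.18 to 0.54 and Iglc1 from -1.44 to 3.86. In DKO Ighg3 ran from -1.23 to 2.17, Igha from -0.26 to 2.46, Ighd from -0.73 to 1.68 and Iglc1 from -1.71 to 3.59. On TPM the members' shares were 0.106%, 0.731%, 2.59%, 2.56% and 3.21%. Depth limits the variable genes of Cre(-) most, with 275 to 842 Ighv counts a library.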
